A study of Mus musculus with 4 samples.

Results

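Nuclear receptors of mouse liver, among them sensors of drugs, bile acids, sterols and fatty acids, were followed in overnight fasting, as 10 genes among the 49 nuclear receptor genes listed for mouse and the 27179 genes counted. They are Nr1i3, which encodes the constitutive androstane receptor CAR, Nr1i2 (PXR), Ppara, Ppard and Pparg (the PPARs), Rxra, Hnf4a, Nr1h3 (LXRα), Nr5a2 (LRH-1) and Esrra (ERRα). The genes were chosen by symbol with their fasted and unfasted counts already known, so their differences between the groups are a description, and test calls on them are only counted beside those on all genes, with nothing read from them. Liver RNA was sequenced in 4 libraries, 2 from livers of mice fasted overnight with water at hand and 2 from livers of unfasted mice with free access to food and water. All 4 libraries are labelled as male wild-type C57BL/6, the age is not given, and the groups follow the sample titles because another label lists fasting for every library. No source ties a library to a mouse. Standard deviations (SD) and standard errors (SE) thus reflect only how far apart the libraries of a group lie, and that spread may be technical. The p-values set the difference between the groups against that same spread.

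Nuclear receptors are transcription factors that bind DNA through zinc fingers and many of them are switched by small lipophilic ligands. CAR and PXR sense drugs and bile acids and drive detoxifying enzymes and transporters, PPARα drives fatty acid oxidation and ketone body synthesis during fasting, and LXRα senses oxysterols. All of these bind DNA as a pair with RXRα. HNF4A, LRH-1 and ERRα do not depend on RXRα. HNF4A maintains hepatocyte gene expression, LRH-1 acts in bile acid and cholesterol metabolism, and ERRα acts with PGC-1 coactivators on mitochondrial genes.

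The groups differed in more than fasting. The fasted libraries held 13541405 and 13528015 counts in all, against 36975921 and 36943535 counts in the unfasted libraries. The 14 hepatocyte markers took 12.0% of the counts in each fasted library, against 4.88% and 4.86% in the unfasted libraries, and all 14 were higher in both fasted libraries. The 16 trophoblast markers, genes of the placenta, summed to 0.443 and 0.517 CPM (counts scaled to a library total of 1e+06) in the fasted libraries, against 60414 and 60934 CPM in the unfasted libraries. In the fasted libraries 10 of these markers had no count (Prl3d1, Prl2c2, Prl7d1, Ascl2, Gcm1, Syna, Synb, Hand1, Plac1 and Cts7). Synb had none in the unfasted libraries either. Decidual stroma markers summed to 20.01 and 19.8 CPM in fasted against 4480 and 4528 CPM in unfasted libraries, with 5 of 8 at 0 in fasted livers. Xist, which coats the inactive X chromosome in female cells, had 2 and 1 counts in fasted against 25772 and 26316 counts in unfasted livers, although the labels say male. The libraries of a group were close, with a mean squared deviation per gene of 1.11 in fasted and 1.13 in unfasted pairs, where 1 is counting error alone, and for 19 of 20 pairs of receptor counts the 95% interval of their ratio included equality. The exception was the fasted pair of Nr1i3, at a ratio of 1.06 (1.01 to 1.12). Both unfasted libraries hold these placental RNAs, so no comparison could be made without them, and the part they have in the results below was not tested. Fasting and this difference in tissue make-up cannot be told apart in these groups, and in bulk RNA fewer cells of a type cannot be told apart from less RNA per cell.

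Because of this, each receptor was read on several scales. On the common scale, counts were divided by size factors from the median of ratios over all genes, which gives the normalized counts, and log2 fold changes, fasted over unfasted, came from edgeR's quasi-likelihood fit. On the hepatocyte scale the same fit was made with size factors from the median of ratios over the 14 hepatocyte markers. That levels the markers as a set and not each of them. Single markers still had log2 fold changes of -0.145 to 0.514 on it. Ratios of 2 receptors within a library need no scaling.

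Nr1i3 was far higher in fasted livers than in unfasted livers on each of the scales used, whereas its relative Nr1i2 was higher by less and was level on one of them. Nr1i3 (Entrez gene 12355, chromosome 1) had 2793 and 2625 counts in the fasted libraries and 638 and 684 counts in the unfasted libraries, although the unfasted libraries were deeper. Both fasted libraries lay above both unfasted libraries. Normalized counts were 5270 ± 222 in fasted and 338 ± 17.2 in unfasted livers (SD, n = 2 each), a log2 fold change of 3.99 (SE 0.046). On the hepatocyte scale the log2 fold change was 2.23, and with total counts it was 3.48.

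Nr1i2 (Entrez gene 18171, chromosome 16) had 1187 counts in each of the fasted libraries and 959 and 961 counts in the unfasted libraries. The libraries of a group were nearly equal and the groups did not overlap. Its normalized counts were 2309 ± 3.90 in fasted and 491 ± 1.5 in unfasted livers (SD, n = 2 each), with a log2 fold change of 2.26 (SE 0.034) and of 0.51 on the hepatocyte scale. Scaled to markers of Kupffer cells, the macrophages of the liver, the log2 fold change of Nr1i2 was 0.0044, so its difference was not present on that scale. CAR and PXR share many target genes, yet Nr1i3 and Nr1i2 differed in how far they stood apart between the groups. There were 2.35 and 2.21 counts of Nr1i3 for each count of Nr1i2 in fasted livers, against 0.665 and 0.712 in unfasted livers. That ratio was 3.31-fold higher in fasted livers and does not depend on any scaling.

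**Figure D1:**
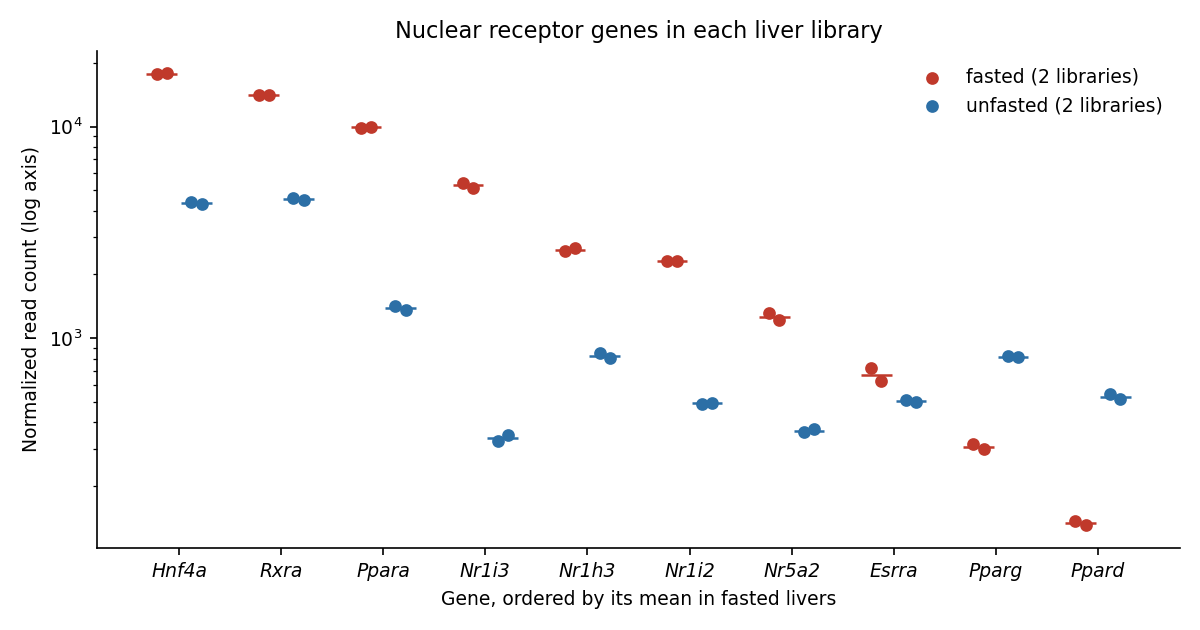
Normalized read counts on a log axis for 10 nuclear receptor genes in each library, fasted (red) and unfasted (blue), with the group mean as a line. Counts are not divided by gene length, so heights compare libraries within a gene. On this scale 37.2% of all genes tested were called higher and 45.0% lower. How often the groups do not overlap over all genes was not counted, so nothing is read from a lack of overlap in single genes. Nr1i3 is at 5270 in fasted and 338 in unfasted livers, and Pparg and Ppard are lower in fasted livers.

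Reads of Nr1i3 carry a limit of the annotation. Its exons share 2160 bases with Tomm40l, a mitochondrial import gene on the opposite strand, and the strand setting of the counting is not given in the sources used here, so reads from the shared bases cannot be told apart. Tomm40l had 2108 and 2122 counts in fasted and 800 and 783 counts in unfasted livers, a log2 fold change of 3.37 (SE 0.031) that lies below that of Nr1i3. Esrra shares 73 exonic bases with Trmt112 on the opposite strand.

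The 250 bases upstream of an annotated start are shown for Nr1i3 and Ppara, which were highest in fasted relative to unfasted livers, and for a close relative of each, Nr1i2 and Pparg. Pparg has 3 such windows, and window 2 in order of position is shown. They are from RefSeq on GRCm38.p6, an earlier build than the GRCm39 of the count files, and are written 5′ to 3′ along the gene. Capitals mark matches to the hexamer AGGTCA, which nuclear receptors bind singly or as repeats, or to the E-box CACGTG.
Nr1i3 (chr1:171213720-171213969, + strand): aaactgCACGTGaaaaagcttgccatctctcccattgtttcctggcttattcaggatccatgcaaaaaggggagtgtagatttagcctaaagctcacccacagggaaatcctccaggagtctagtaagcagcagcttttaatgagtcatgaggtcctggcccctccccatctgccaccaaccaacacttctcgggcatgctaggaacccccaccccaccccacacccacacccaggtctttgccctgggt
Nr1i2 (chr16:38294825-38295074, - strand): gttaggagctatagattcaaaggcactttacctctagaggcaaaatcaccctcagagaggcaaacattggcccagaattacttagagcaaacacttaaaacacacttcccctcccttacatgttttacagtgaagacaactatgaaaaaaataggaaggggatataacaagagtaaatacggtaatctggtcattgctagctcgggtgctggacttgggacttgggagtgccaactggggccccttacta
Ppara (chr15:85735526-85735775, + strand): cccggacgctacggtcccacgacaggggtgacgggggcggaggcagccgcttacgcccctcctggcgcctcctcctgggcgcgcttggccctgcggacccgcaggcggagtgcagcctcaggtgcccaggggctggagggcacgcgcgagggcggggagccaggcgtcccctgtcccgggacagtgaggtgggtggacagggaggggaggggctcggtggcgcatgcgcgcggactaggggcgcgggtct
Pparg (chr6:115362099-115362348, + strand): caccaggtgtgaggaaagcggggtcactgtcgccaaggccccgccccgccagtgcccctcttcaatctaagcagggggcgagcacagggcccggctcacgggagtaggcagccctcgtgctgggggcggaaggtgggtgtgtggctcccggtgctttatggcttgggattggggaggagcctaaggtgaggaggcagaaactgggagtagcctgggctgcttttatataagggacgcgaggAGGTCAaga
Motifs were searched on both strands as AGGTCA, as the direct repeats AGGTCANAGGTCA (DR1, the PPAR and HNF4A spacing) and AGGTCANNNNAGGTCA (DR4, the CAR and LXR spacing), both of which contain the hexamer, and as CACGTG. All 10 receptors had windows, 16 in all. The window of Nr1i3 held an E-box at -244 to -239 from the start, and that of Nr1i2 held none of the motifs. The hexamer was in windows of Pparg, Rxra and Nr5a2, and in 14.02% of all 32851 windows of this length. For Pparg it was in window 1 and in window 2, the one shown, and window 3 held none of the motifs. DR1 and DR4 were in none of the 16 windows, and in 0.0335% and 0.0152% of all windows. The E-box was in 6.02% of all windows. The windows also differ in base composition. Nr1i3 and Nr1i2 have 2 CpG dinucleotides each, at 53.2% and 44.0% G and C, whereas Ppara has 27 at 76.4%, beside medians over all windows of 6 CpG and 52.4%. A match describes the letters of a window and not a bound site.

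The PPARs went opposite ways. Ppara was higher in fasted livers, and Ppard and Pparg were lower in fasted livers, on each of the scales used. Ppara (Entrez gene 19013, chromosome 15) had 5070 and 5134 counts in the fasted libraries and 2764 and 2661 counts in the unfasted libraries. The fasted libraries lay above the unfasted libraries without overlap. Normalized counts were 9925 ± 105 in fasted and 1387 ± 35.0 in unfasted livers (SD, n = 2 each), a log2 fold change of 2.87 (SE 0.024), and of 1.11 on the hepatocyte scale.

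Pparg (Entrez gene 19016, chromosome 6), the regulator of fat storage in adipocytes, had 162 and 153 counts in the fasted libraries and 1607 and 1593 counts in the unfasted libraries. The unfasted libraries were higher by a wide margin in raw counts and remained higher after scaling. Its normalized counts were 306 ± 11.9 in fasted and 818 ± 3.77 in unfasted livers (SD, n = 2 each), with a log2 fold change of -1.39 (SE 0.058) and of -3.14 on the hepatocyte scale. Ppard (Entrez gene 19015, chromosome 17), which is expressed in most tissues and acts on fatty acid use, was the lowest of the 10 in fasted livers, with 70 and 67 counts against 1060 and 1002 counts in unfasted livers. Its groups did not overlap either. Normalized counts of Ppard were 133 ± 3.90 in fasted and 527 ± 20.1 in unfasted livers (SD, n = 2 each), a log2 fold change of -1.96 (SE 0.093) that became -3.71 on the hepatocyte scale.

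Within the fasted libraries there were 31.3 and 33.6 counts of Ppara for each count of Pparg, against 1.72 and 1.67 in the unfasted libraries, a 19.1-fold higher ratio in fasted livers. For Ppara over Ppard the ratios were 72.4 and 76.6 in fasted against 2.61 and 2.66 in unfasted livers, 28.3-fold higher in fasted livers. Of these ratios that of Pparg to Ppard moved least, at 2.31 and 2.28 in fasted against 1.52 and 1.59 in unfasted livers. In mouse, Pparg and Ppard are also known for roles in the placenta, and the trophoblast markers given above moved with their lower counts in fasted livers. Of the 6 adipocyte markers, Adipoq, Plin1, Lep and Retn had no count in fasted livers, and Lep had none in unfasted livers either. Those 4 had too few counts to be tested, and the 2 tested were higher in fasted livers. The list summed to 8.34 and 6.36 CPM in fasted against 1.43 and 1.38 CPM in unfasted livers. The part of other cell types in the values of Pparg and Ppard was not tested.

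RXRα, the shared partner, and HNF4A, the hepatocyte regulator, followed the hepatocyte markers closely. Rxra (Entrez gene 20181, chromosome 2) had 7285 and 7201 counts in the fasted libraries and 8982 and 8823 counts in the unfasted libraries. By raw count the unfasted libraries were higher, and on the common scale the fasted libraries were, at 14090 ± 91.7 in fasted and 4552 ± 50.3 in unfasted livers (SD, n = 2 each). The log2 fold change of Rxra was 1.66 (SE 0.016) on the common scale, and its direction turned to -0.10 on the hepatocyte scale. Hnf4a (Entrez gene 15378, chromosome 2) had 9139 and 9158 counts in fasted and 8606 and 8411 counts in unfasted livers. Its normalized counts were 17797 ± 56.2 in fasted and 4350 ± 63.6 in unfasted livers (SD, n = 2 each), with no overlap. The log2 fold change of Hnf4a was 2.06 (SE 0.016) on the common scale and 0.30 on the hepatocyte scale.

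Nr1h3 and Nr5a2 also kept near the hepatocyte markers. Nr1h3 (Entrez gene 22259, chromosome 2) had 1326 and 1362 counts in fasted and 1659 and 1577 counts in unfasted livers. Normalized counts of Nr1h3 were 2615 ± 53.9 in fasted and 827 ± 28.3 in unfasted livers (SD, n = 2 each). Its log2 fold change was 1.69 (SE 0.039) on the common scale and -0.07 on the hepatocyte scale, so the direction depended on the scaling. Nr5a2 (Entrez gene 26424, chromosome 1) had 674 and 624 counts in fasted and 703 and 726 counts in unfasted livers. Normalized counts of Nr5a2 were 1262 ± 66.6 in fasted and 365 ± 8.89 in unfasted livers (SD, n = 2 each), a log2 fold change of 1.81 (SE 0.055) that was 0.06 on the hepatocyte scale. For both genes the groups did not overlap on the common scale.

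Esrra (Entrez gene 26379, chromosome 19) stood apart from these. It had 370 and 321 counts in the fasted libraries and 1000 and 978 counts in the unfasted libraries, and normalized counts of 672 ± 66.3 in fasted and 506 ± 7.15 in unfasted livers (SD, n = 2 each). The fasted pair was the widest relative to its mean among the 10 genes. The groups did not overlap on the common scale. By CPM they did, at 27.3 and 23.7 in fasted against 27.0 and 26.5 in unfasted livers. Its log2 fold change was 0.44 (SE 0.069) on the common scale, and turned to -0.07 by total counts and to -1.32 on the hepatocyte scale.

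Counted over the 10 genes, 8 were higher and 2 lower in fasted livers past an adjusted p of 0.05 in edgeR's quasi-likelihood test on the common scale. Among all 15470 genes tested, 37.2% (5756) were higher and 45.0% (6965) lower under the same rule. Scaled to total counts instead, 7 of the 10 were higher and 2 lower, beside 3551 higher and 9694 lower among all genes. On the hepatocyte scale, 4 receptors were higher (Nr1i3, Ppara, Nr1i2 and Hnf4a), 4 lower (Ppard, Pparg, Esrra and Rxra) and 2 did not pass (Nr1h3 and Nr5a2), beside 4.74% higher and 89.9% lower among all genes tested. The receptors were selected with this contrast in view, and these counts support nothing about them.

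The 14 hepatocyte markers themselves had log2 fold changes of 1.61 (Fgb) to 2.27 (Apoa2) on the common scale, with a median of 1.75. Nr1i3 and Ppara lay above this range. Nr1i2, Rxra, Hnf4a, Nr1h3 and Nr5a2 lay within it, and Ppard, Pparg and Esrra lay below it. Expressed per 1e+06 hepatocyte-marker counts, Nr1i3 stood at 1725 and 1619 in fasted against 354 and 381 in unfasted livers, 4.55-fold higher in fasted livers. By the same measure Ppara was 2.09-fold, Nr1i2 1.37-fold and Hnf4a 1.19-fold higher in fasted livers. Esrra was 2.58-fold, Pparg 9.15-fold and Ppard 13.6-fold lower in fasted livers. The Kupffer cell markers spanned 1.92 to 2.64, and scaling to them left only Nr1i3 and Ppara above 0 by more than 0.1, at 1.73 and 0.61.

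**Figure D2:**
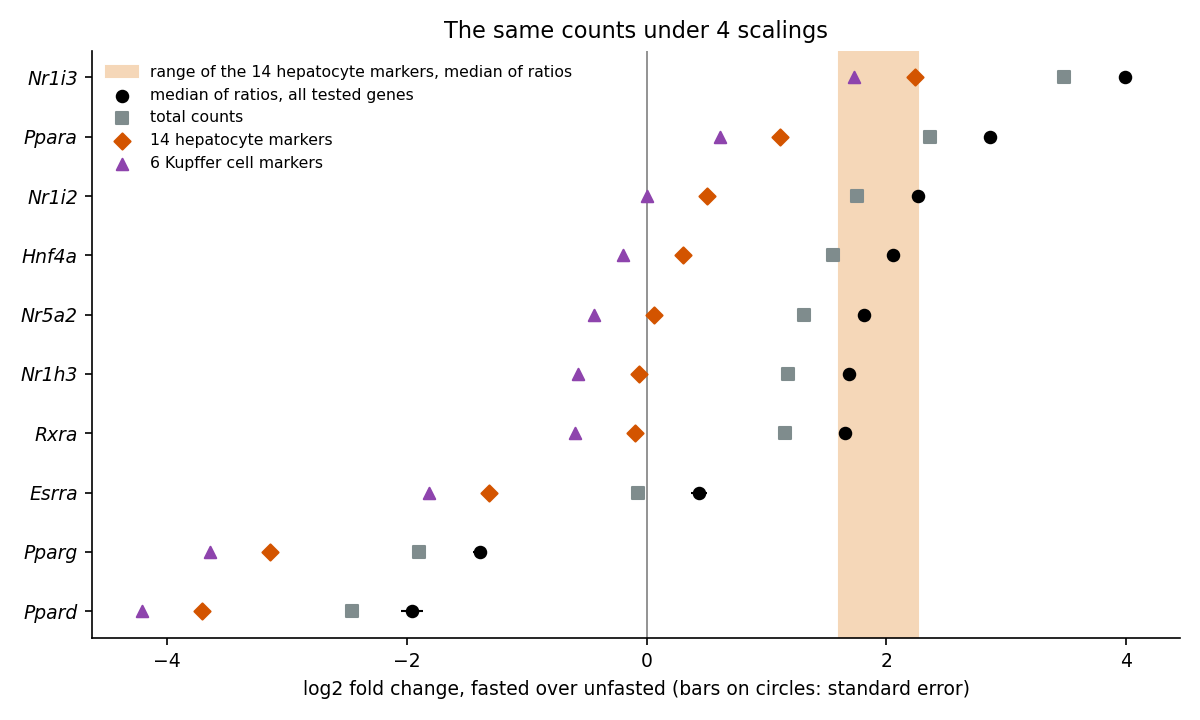
Log2 fold change, fasted over unfasted, of the 10 receptor genes under 4 scalings of the same counts, with standard errors on the common-scale values and the span of the hepatocyte markers (1.61 to 2.27) shaded. Nr1i3 and Ppara are above 0 and Pparg and Ppard below 0 under all 4, whereas Rxra, Nr1h3, Nr5a2, Hnf4a and Esrra change sign between scalings.

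Ratios to Rxra in the same library need no scaling. Dividing every receptor by the same gene leaves their order unchanged, so the order of that plot returns here by construction. RXRα is the DNA-binding partner of CAR, PXR, the PPARs and LXRα, so these ratios also give the counts of each receptor beside those of its partner. For every 100 counts of Rxra, Nr1i3 had 38.3 and 36.5 in fasted livers against 7.10 and 7.75 in unfasted livers, 5.03-fold higher in fasted livers. Ppara had 69.6 and 71.3 per 100 in fasted against 30.8 and 30.2 in unfasted livers, and Nr1i2 had 16.3 and 16.5 in fasted against 10.7 and 10.9 in unfasted livers. These ratios were 2.31-fold and 1.52-fold higher in fasted livers. Nr1h3 was level with Rxra, at 18.2 and 18.9 per 100 in fasted against 18.5 and 17.9 in unfasted livers, and here the groups overlapped. Nr5a2, which binds without RXRα, had 9.25 and 8.67 per 100 in fasted against 7.83 and 8.23 in unfasted livers, a gap between groups smaller than the spread within the fasted pair. The ratios of Esrra, Pparg and Ppard to Rxra were 2.33-fold, 8.27-fold and 12.2-fold lower in fasted livers.

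**Figure D3:**
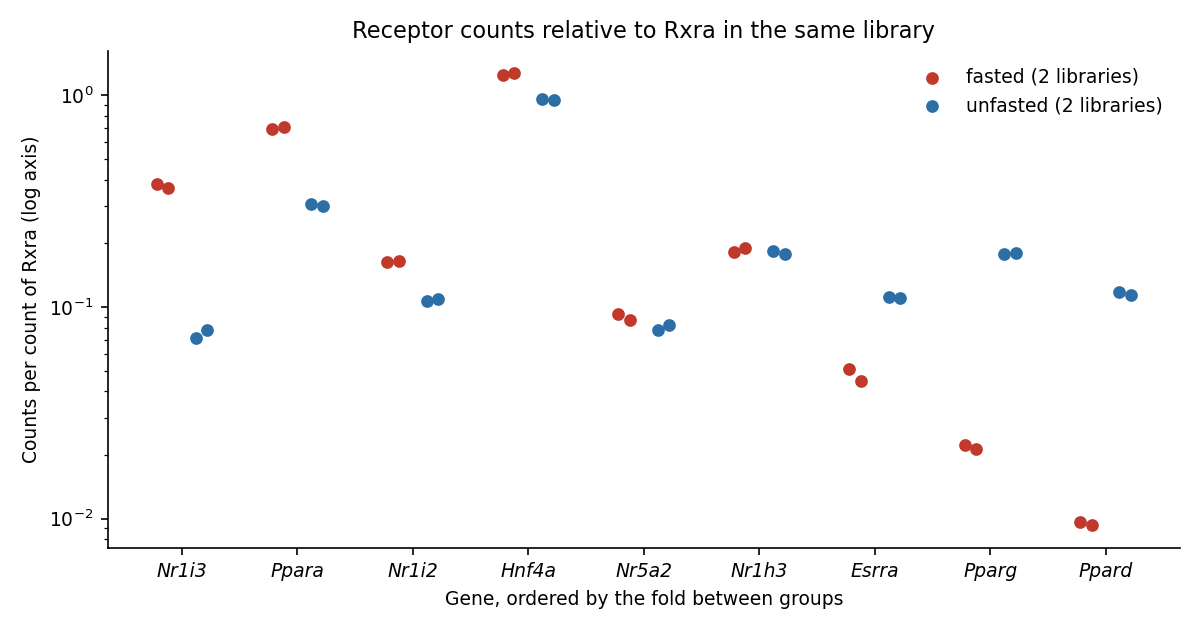
Counts of each receptor per count of Rxra in the same library, on a log axis, for the fasted (red) and unfasted (blue) libraries. Nr1i3 shows the widest gap upwards, at 0.383 and 0.365 in fasted against 0.0710 and 0.0775 in unfasted livers, Nr1h3 overlaps between groups, and Ppard shows the widest gap downwards.

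The order of the receptors by level also differed between the groups. Levels were compared as normalized counts per kilobase of the median transcript length. In fasted livers Rxra led at 5414 ± 35.3 per kilobase, followed by Hnf4a at 4083 ± 12.9, Ppara at 3940 ± 41.6 and Nr1i3 at 3801 ± 160 (SD, n = 2). Ppara and Nr1i3 overlapped and were not separated. Below them came Nr1h3, Nr1i2, Nr5a2, Esrra, Pparg and Ppard, the last at 83.4 ± 2.44, with no overlap between neighbors. In unfasted livers Rxra (1749 ± 19.3), Hnf4a (998 ± 14.6) and Ppara (551 ± 13.9) again led, but Pparg (448 ± 2.06) and Ppard (330 ± 12.6) came before Nr1i3 (244 ± 12.4). Nr1i3 thus had rank 4 of 10 in fasted livers and rank 7 in unfasted livers. The order depends on the lengths used. With the length of all exons together, Hnf4a led in both groups and Nr1i3 had rank 4 in fasted livers at 1612 ± 67.9 and rank 9 in unfasted livers at 103 ± 5.25. That length is 3270 bases for Nr1i3, and 2160 of its exonic bases are shared with Tomm40l. How reads there were assigned is not given, so the levels and ranks of Nr1i3 are uncertain.

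The gene whose profile over the 4 libraries was nearest that of Nr1i3, among 8882 genes with a mean of at least 10 CPM, was Angptl4, a secreted inhibitor of lipoprotein lipase. Profiles were compared as log2 CPM centered on each gene's mean, and the root mean square difference was 0.030 for Angptl4. Angptl4 had 2450 and 2417 counts in fasted and 591 and 621 counts in unfasted livers. BC024386, Cyp2d37-ps, Nlrp12 and Plin4 followed, at differences of 0.061 to 0.102. With 2 groups of 2 libraries such nearness mostly means a fold change of about the same size, here 3.91 to 4.18 on the log2 scale.

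Of the other 39 nuclear receptors, 32 had enough counts to be tested. On the common scale 20 were higher, 8 lower and 4 did not pass the test, beside 37.2% higher and 45.0% lower over all genes tested. The median log2 fold change was 0.54, beside -0.13 over all genes tested. On the hepatocyte scale 3 were higher, 23 lower and 6 did not pass, beside 4.74% higher and 89.9% lower over all genes tested. The median there was -1.22, beside -1.88 over all genes. Scaled to total counts, 13 were higher and 11 lower, beside 3551 higher and 9694 lower among all 15470 genes tested. Nr1h5 and Nr1h4 had the highest log2 fold changes of them. Nr1h4, which encodes the bile acid receptor FXR, had 1728 and 1709 counts in fasted and 1250 and 1212 counts in unfasted livers, a log2 fold change of 2.43 (SE 0.031, edgeR adjusted p = 1.5e-11) that was 0.68 on the hepatocyte scale and past the threshold there too. Its paralog Nr1h5 had 38 and 57 counts in fasted and 22 and 15 counts in unfasted livers, at a log2 fold change of 3.30 (SE 0.29).

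Rxrg, an RXR gene of low expression in liver, was at 2.26 on the common scale and 0.51 on the hepatocyte scale, and was called higher by both. Esrrg at 2.27 and the thyroid hormone receptor gene Thrb at 1.73 were higher on the common scale and did not pass on the hepatocyte scale, at 0.52 and -0.02. Nr0b2, which encodes SHP, a repressor without a DNA-binding domain that FXR induces, was at 1.27 on the common scale and turned lower, to -0.49, on the hepatocyte scale. The glucocorticoid receptor gene Nr3c1 and the RXR gene Rxrb were at 0.54 and 0.42 on the common scale and at -1.21 and -1.33 on the hepatocyte scale.

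Of the other nuclear receptors tested, those with the lowest log2 fold changes had little or no count in fasted livers. Pgr, the progesterone receptor gene, had no count in either fasted library and 1409 and 1466 counts in the unfasted libraries, at least 252-fold lower in fasted livers at a floor of 3 counts over the group. Rorb had no count in fasted and 122 and 129 counts in unfasted livers, at least 22.0-fold lower in fasted livers. The vitamin D receptor gene Vdr had 0 and 1 counts in fasted against 57 and 55 counts in unfasted livers, a ratio of 0.0340 (95% counting interval 0.000853 to 0.193). Esrrb, a gene of mouse trophoblast stem cells, had 9 and 8 counts in fasted and 209 and 212 counts in unfasted livers, a log2 fold change of -2.67 (SE 0.20, edgeR adjusted p = 6.5e-06). Nr4a2, an immediate early gene, had 7 and 5 counts in fasted and 64 and 55 counts in unfasted livers, at -1.35 (SE 0.30). Pgr is also among the decidual stroma markers, 7 of whose 8 members were lower in both fasted libraries. The part of placental and decidual RNA in these low counts was not tested.

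**Figure D4:**
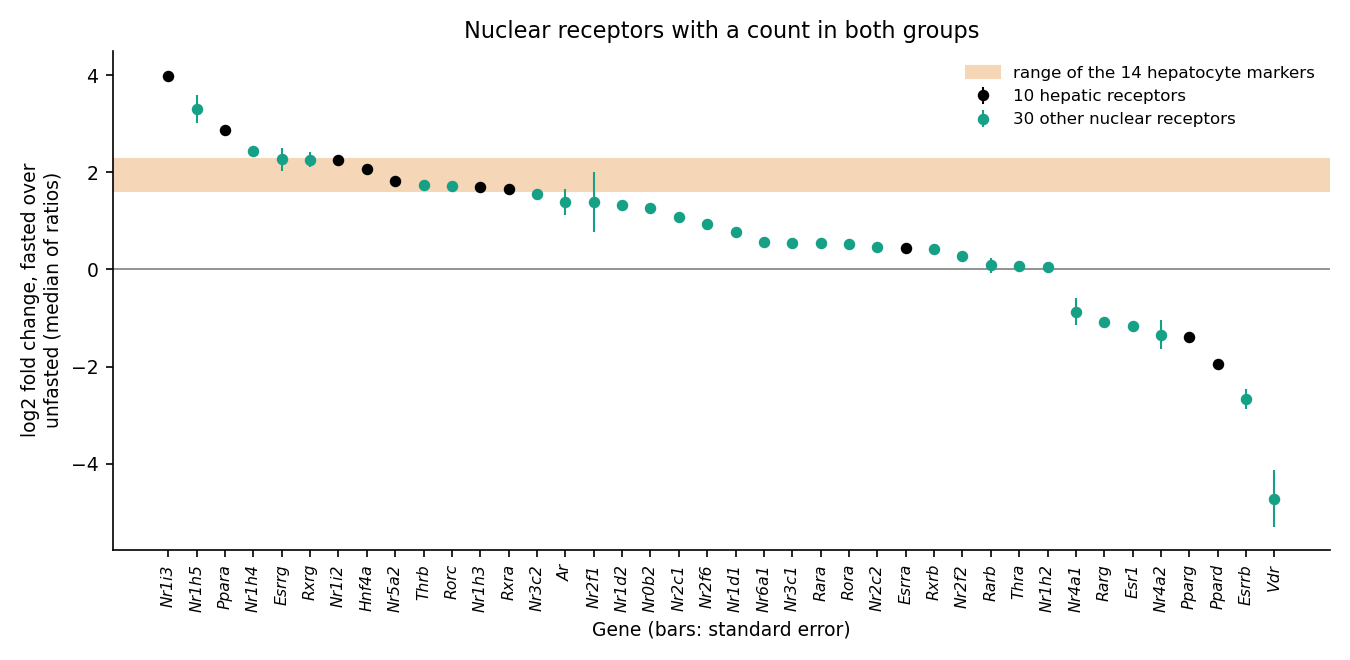
Log2 fold change on the common scale with standard errors for 40 nuclear receptor genes tested and with a count in both groups, the 10 hepatic receptors in black and 30 others in green, with the hepatocyte marker range shaded. Nr1i3 is at the top at 3.99, 2 of the 30 others lie above the shaded range, 4 within it and 24 below it, and Vdr is at the bottom.

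Receptors act through coregulators, whose calls were near the share over all genes tested on both scales. Of 20 coregulator genes 8 were higher, 8 lower and 4 did not pass the test on the common scale, with a median of 0.01, beside 37.2% higher and 45.0% lower over all genes. On the hepatocyte scale 1 was higher and 19 were lower, with a median of -1.74, beside 4.74% higher and 89.9% lower over all genes. Scaled to total counts, 4 were higher and 13 lower, beside 3551 higher and 9694 lower among all 15470 genes tested. Ppargc1a, the fasting-induced coactivator PGC-1α, had 89 and 100 counts in fasted and 68 and 93 counts in unfasted livers. Its log2 fold change was 2.18 (SE 0.18, edgeR adjusted p = 4.6e-06), and at 0.43 it was the gene called higher on the hepatocyte scale. The coactivator gene Ncoa1 was at 1.37 on the common scale and -0.38 on the hepatocyte scale. The corepressor gene Ncor1, the coregulator with the most counts, was at 0.82 on the common scale and -0.94 on the hepatocyte scale.

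CAR is held in the cytoplasm by heat shock protein 90 and its partner DNAJC7, EGFR signaling keeps it there, and protein phosphatase 2A releases it. Of 6 genes of this step, 4 were higher and 2 lower on the common scale, beside 37.2% higher and 45.0% lower over all genes tested. All 6 were lower on the hepatocyte scale, where 89.9% of all genes tested were. Without fasted library 2 the lower genes numbered 1 on the common scale. Egfr had 9033 and 8995 counts in fasted and 16487 and 16168 counts in unfasted livers, at a log2 fold change of 1.10 (SE 0.015) on the common scale and -0.66 on the hepatocyte scale. Ppp1r16a, a regulatory subunit of a protein phosphatase, was at 0.62. Hsp90ab1, with the most counts of the 6, was at 0.06, and Hsp90aa1 and Ppp2ca were lower, at -1.24 and -0.16.

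The calls on target genes of CAR depended on the scale. Of 12 listed, 10 were tested, of which 9 were higher and 1 lower on the common scale (median 1.63). On the hepatocyte scale 5 were higher and 5 lower (median -0.12). Beside this and each target list below stand the shares over all genes tested. These were 37.2% higher and 45.0% lower on the common scale, and 4.74% higher and 89.9% lower on the hepatocyte scale. The transporter genes Abcc3 and Abcc2, which export conjugated drugs and bilirubin, were at 2.54 and 2.34 on the common scale and at 0.79 and 0.59 on the hepatocyte scale. Aldh1a1, with the most counts, was at 1.91 and 0.15 by these scalings. Cyp2b10, the textbook CAR target in mouse and named here after its values were seen, had 37 and 44 counts in fasted and 84 and 103 counts in unfasted livers. Its log2 fold change was 0.75 (SE 0.19, edgeR adjusted p = 0.0091) on the common scale, and turned to -1.0 on the hepatocyte scale. The stress gene Gadd45b went against its list, with 15 and 9 counts in fasted against 2657 and 2658 counts in unfasted livers, at -5.83 (SE 0.11).

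Of 10 targets of PXR, 9 were tested, with 7 higher and 2 lower on the common scale (median 1.92), and 5 higher and 4 lower on the hepatocyte scale (median 0.17). Slco1a4, an organic anion uptake transporter, had 1030 and 955 counts in fasted and 393 and 365 counts in unfasted livers, at 3.34 on the common scale and 1.59 on the hepatocyte scale. Cyp3a25 and Alas1, which catalyzes the rate-limiting step of heme synthesis, were at 2.94 and 2.82 on the common scale and 1.19 and 1.07 on the hepatocyte scale. Cyp3a11, with the most counts and the textbook PXR target in mouse, was at 1.97 and 0.22. The Cyp3a genes, like the Cyp4a genes, have near-identical copies, and how shared reads were counted is not given in the sources used here. Abcb1a was lower at -1.25, and Akr1b7 had 1 count in each fasted library against 15 and 17 counts in the unfasted libraries, a ratio of 0.238 (95% counting interval 0.0276 to 0.932). When any one of the 4 libraries was left out, 1 of the 2 lower genes passed, and with at least 5 CPM in 2 libraries required there were 0.

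Targets of PPARα had the highest median of the 8 receptor target lists. All 20 were tested, 19 were higher and 1 lower on the common scale (median 2.64), and 18 were higher, 1 lower and 1 did not pass on the hepatocyte scale (median 0.88). Cyp4a14, an ω-hydroxylase of fatty acids, had 8416 and 8561 counts in fasted and 160 and 145 counts in unfasted livers, a log2 fold change of 7.75 (SE 0.034, edgeR adjusted p = 1.5e-13). Cyp4a10 and the hormone gene Fgf21 were at 5.76 and 5.14, and Fabp1, with the most counts, at 2.35. On the hepatocyte scale these 4 genes were at 6.00, 4.01, 3.40 and 0.59. Pdk4, which shuts off pyruvate dehydrogenase, went against the list, with 205 and 187 counts in fasted and 1339 and 1351 counts in unfasted livers, at -0.82 (SE 0.060).

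Of 10 targets of PPARγ only 6 were tested, with 5 higher and 1 lower on the common scale (median 2.12), and 3 higher, 2 lower and 1 not past on the hepatocyte scale (median 0.37). Plin4 and Cidec, which coat lipid droplets, were at 4.18 and 3.34 on the common scale and 2.43 and 1.59 on the hepatocyte scale, whereas Pparg itself was lower. Fabp4, a fatty acid carrier of adipocytes, macrophages and endothelium, was the one that followed Pparg in direction, with 81 counts in each fasted library against 12585 and 12952 counts in the unfasted libraries (log2 fold change -5.35, SE 0.052, edgeR adjusted p = 2.1e-11). The 7 endothelial markers summed to 171 CPM in each fasted library, against 592 and 588 CPM in the unfasted libraries, with 2 higher and 5 lower in both fasted libraries, and their part in the fall of Fabp4 was not tested.

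Of 14 targets of HNF4A, 13 were higher and 1 lower on the common scale (median 2.03), and 11 were higher, 2 lower and 1 not past on the hepatocyte scale (median 0.27). G6pc, the last enzyme of gluconeogenesis, was at 2.99 and 1.24 by these scalings. Cyp8b1 was at 2.23 and 0.47, Apob, with the most counts, was at 2.14 and 0.38, and the coagulation factor gene F11 went against the list at -0.68 and -2.43. All 8 targets of LRH-1 were higher on the common scale (median 1.45). On the hepatocyte scale 3 were higher (Abcg5, Abcg8 and Cyp8b1) and 5 lower. The target lists share genes, as Cyp8b1 is also listed for HNF4A and Abcg5 and Abcg8 also for LXRα.

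Targets of LXRα were divided in direction. Of 11, 6 were higher and 5 lower on the common scale (median 0.57), and 2 were higher and 9 lower on the hepatocyte scale (median -1.18). The sterol export genes Abcg5 and Abcg8 were at 2.86 and 2.69 on the common scale and at 1.11 and 0.94 on the hepatocyte scale. Lower on the common scale were Abcg1 (-2.93), Pltp (-1.41), Fasn (-1.23), Srebf1 (-0.44) and Mylip (-0.39), of which Fasn and Srebf1 serve fatty acid synthesis. Scd1, with the most counts, was at 0.57 and turned to -1.18 on the hepatocyte scale. All 12 targets of ERRα were higher on the common scale (median 1.03), and 1 was higher and 11 lower on the hepatocyte scale (median -0.72), a split near the 4.74% higher and 89.9% lower over all genes tested. Acadm of fatty acid oxidation, the gene that stayed higher, was at 2.06 and 0.30, Sdhb and Uqcrc1 of the respiratory chain were at 1.29 and 1.26 on the common scale, and Atp5b, with the most counts, was at 1.25.

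**Figure D5:**
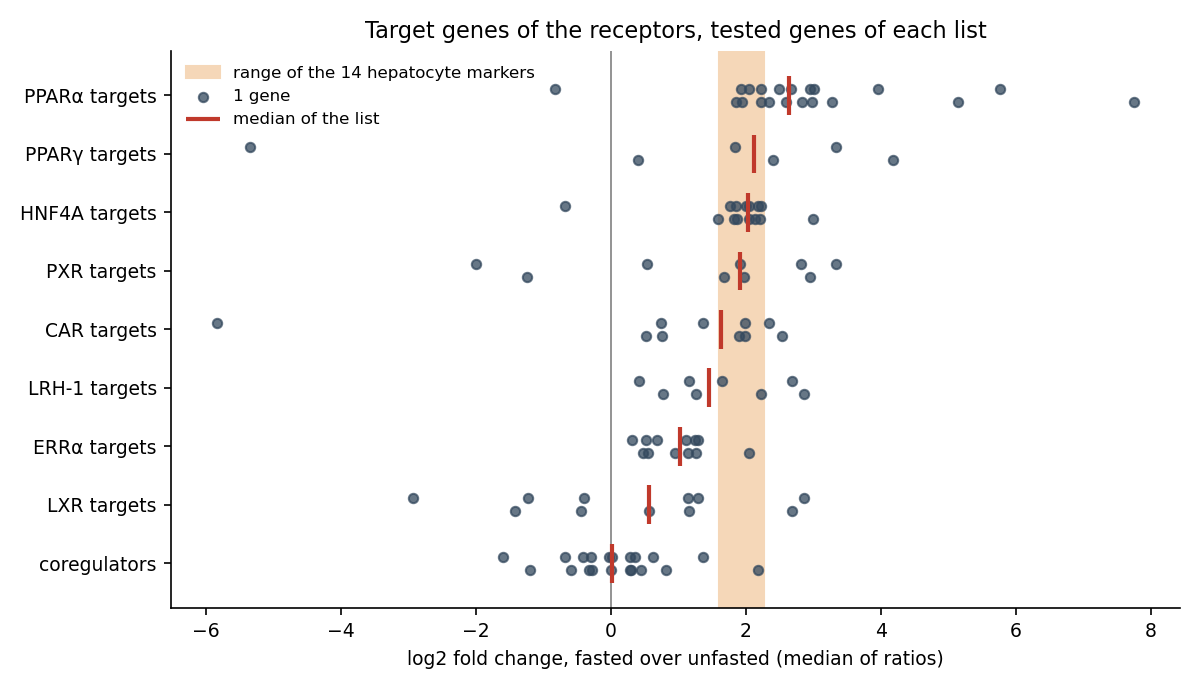
Log2 fold change on the common scale of the tested targets of 8 receptors and of the coregulators, 1 point per gene with the list median as a red bar and the hepatocyte marker range shaded. The median of the PPARα targets (2.64) lies above the shaded range, those of the PPARγ, HNF4A, PXR and CAR targets within it, and those of the LRH-1, ERRα and LXR targets and of the coregulators below it.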

How the data were processed

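The deposited files hold raw counts per Entrez gene for 4 mouse liver libraries, as the authors made them without normalization. Per the submitters' processing notes, tools were Trimmomatic, STAR, featureCounts, FastQC, MultiQC and DESeq2 1.32.0 on the build GRCm39. How strand and multi-mapped reads were treated is not given in the sources used here. Genes were named from RefSeq tables (1904 of 27179 identifiers had no name), and transcript lengths and exon overlaps came from GENCODE on GRCm38.

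Groups follow the sample titles. Counts were filtered by filterByExpr at its defaults (15470 genes), scaled by the median of ratios (the common scale), and edgeR 4.0.16 in R 4.3.3 gave the quasi-likelihood F test, two-sided, with Benjamini-Hochberg adjustment over all genes tested at 0.05. Standard errors were derived from the fold change and its F statistic, with the deviance computed exactly. Log2 fold changes lie 0.026 above the ratio of normalized counts, whose factors use all genes. The receptors and gene lists were chosen with earlier results of these data known.

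Named genes are the 10 receptors, from the other nuclear receptors the 5 that rose most and the 5 that fell most past the threshold, Nr1h4, Nr0b2, Thrb, Nr3c1 and Rxrb, in each further list the 3 members of largest fold, the member with the most counts and members against most of the list, and the 5 genes nearest Nr1i3. A few genes that this rule names are not reported here. Counting intervals are at 95% and, like the floor of 3 counts over a group, cover counting error only. Alternatives were other scalings, filters on low counts, DESeq2 1.42.0, limma-voom 3.58.1, a fixed coefficient of variation of 0.2, a replicate block, omission of single libraries and thinning to equal totals. Python 3.11.15 with matplotlib 3.10.9 drew the plots.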

Additional observations from a re-analysis of the deposited data

How the results depend on the processing

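The directions of several receptors depended on the scaling. Between median of ratios and hepatocyte markers the fit moved the median of all genes tested by -1.75, while total counts moved it by -0.50 and Kupffer markers by -2.25. Scaling to the 6 Kupffer cell markers and the exon length of the level order were chosen after the data had been seen. By total counts 3551 genes were higher, and by hepatocyte markers 734 were higher and 13914 lower. By Kupffer markers 212 were higher and 14752 lower, and at a coefficient of variation of 0.2 the higher genes numbered 3714. Esrra turned to -0.068 by total counts, -1.32 by hepatocyte markers and -1.82 by Kupffer markers. Nr1h3 (-0.068) and Rxra (-0.10) turned by hepatocyte markers, and by Kupffer markers Hnf4a (-0.20), Nr1h3 (-0.57), Nr5a2 (-0.44) and Rxra (-0.60) did, while Nr1i2 was at 0.0044 and did not pass. Of the other nuclear receptors, 13 were higher by total counts, 3 by hepatocyte markers and 2 by Kupffer markers, and 23, 27 and 4 were lower by hepatocyte markers, by Kupffer markers and with at least 5 CPM in 2 libraries. Of the coregulators, 4, 1 and 0 were higher and 13, 19 and 19 lower by total counts, hepatocyte markers and Kupffer markers, and 6 were called at the coefficient of 0.2, 3 higher and 3 lower. Genes of the receptor target lists were higher in 44 cases and lower in 38 by hepatocyte markers, and 21 and 54 by Kupffer markers. The cause of these moves other than the scaling itself was not tested.

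Lower PXR targets numbered 2 in the reported fit, 1 with DESeq2, after thinning or when any one library was left out, 0 with at least 5 CPM in 2 libraries, 4 by hepatocyte markers and 6 by Kupffer markers. Deviations of replicate 1 from its group mean were not correlated between the groups (r = -0.005 over 15470 genes). The spread within a group was near counting error, so this cannot show whether replicate numbers pair the samples. A fit with the replicate block gave 5743 higher and 6929 lower genes. Apart from scaling to totals or markers, Nr1i3 ranged from 3.92 to 4.11, Ppara from 2.80 to 2.98 and Ppard from -2.01 to -1.84 over filters, tools, left-out libraries and thinning. Ppard rests on 67 to 70 counts in fasted livers, which limits its precision. Groups of 2 libraries allow no check of single libraries beyond leaving them out, with the lone library then assumed to vary like the other group.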
